A study of Homo sapiens with 6 samples.

Results

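The transforming growth factor beta (TGF-beta) arm of BT-549 cells was described through 9 genes, taken by symbol from the 37887 rows of a raw count table: the ligands TGFB1, TGFB2 and TGFB3, the receptors TGFBR1 and TGFBR2, the signal transducer SMAD3, the feedback inhibitors SMAD7 and SKIL, and the secreted matrix protein TGFBI. BT-549 is a triple-negative breast cancer cell line, and all groups analyzed here came from it. RNA-seq was performed on 3 libraries of control shRNA cells (shCTL) and 3 libraries of shPBRM1 cells, silenced for PBRM1, a bromodomain subunit of the PBAF chromatin remodeling complex. The sources differ on what the control is. By their titles the controls carry a control shRNA, and the paper sets a control shRNA line against a PBRM1shRNA line, whereas the treatment labels give DMSO for the shCTL and doxycycline (DOX) for the shPBRM1 libraries, and the design text of the series describes 1 line with a tet-inducible PBRM1 hairpin, given 0.1% DMSO or 500 ng/ml DOX. Silencing therefore cannot be told apart from DOX itself, nor, if the control was a separate line, from a difference between lines. The cells were cultured in triplicate, and the model is 1 cell line. All 9 members passed the filter on low counts, which left 15450 genes for testing.

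TGF-beta ligands are secreted in a latent complex with their own propeptide and latent TGF-beta binding proteins, and are freed at the cell surface or in the matrix, in part by integrins. The active dimer binds the type II receptor TGFBR2, which phosphorylates the type I receptor TGFBR1, and TGFBR1 in turn phosphorylates SMAD2 and SMAD3, which enter the nucleus with SMAD4. SMAD7 and SKIL are themselves induced by the pathway and restrain it. In mesenchymal breast cancer cells TGF-beta signaling is known for its ties to epithelial-mesenchymal transition, matrix production and immune suppression.

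Promoter sequences are shown for the 4 ligand and receptor genes that differed between the groups, since each pair holds 1 gene that was higher and 1 that was lower in shPBRM1 cells. The sequences are RefSeq promoter windows in build GRCh38.p14, written 5′ to 3′ on the strand of the gene, from 250 bases before to 50 bases after an annotated start. Capitals mark a match to the CAGA box core CAGACA, bound by SMAD3 and SMAD4, or to the AP-1 element TGANTCA. The TGFB1 window is chr19:41353873-41354172 on the minus strand, the TGFB2 window chr1:218345086-218345385, the TGFBR1 window chr9:99103802-99104101 and the TGFBR2 window chr3:30606351-30606650, the latter 3 on the plus strand.
TGFB1: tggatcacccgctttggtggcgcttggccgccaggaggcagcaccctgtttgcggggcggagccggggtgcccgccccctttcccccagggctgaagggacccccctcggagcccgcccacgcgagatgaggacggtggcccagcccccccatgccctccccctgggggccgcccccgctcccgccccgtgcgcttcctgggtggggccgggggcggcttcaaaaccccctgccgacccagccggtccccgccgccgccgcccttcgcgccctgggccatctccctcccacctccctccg
TGFB2: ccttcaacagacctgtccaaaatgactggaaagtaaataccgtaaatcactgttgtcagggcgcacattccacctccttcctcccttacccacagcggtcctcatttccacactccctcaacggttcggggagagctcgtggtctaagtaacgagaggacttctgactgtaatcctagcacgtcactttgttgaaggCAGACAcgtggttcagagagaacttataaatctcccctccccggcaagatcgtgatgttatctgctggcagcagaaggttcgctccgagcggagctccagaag
TGFBR1: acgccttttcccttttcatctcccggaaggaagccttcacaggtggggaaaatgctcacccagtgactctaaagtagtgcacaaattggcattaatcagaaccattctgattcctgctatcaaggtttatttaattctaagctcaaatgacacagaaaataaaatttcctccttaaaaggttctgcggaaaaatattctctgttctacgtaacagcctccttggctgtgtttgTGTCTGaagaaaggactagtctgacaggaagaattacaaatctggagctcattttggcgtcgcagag
TGFBR2: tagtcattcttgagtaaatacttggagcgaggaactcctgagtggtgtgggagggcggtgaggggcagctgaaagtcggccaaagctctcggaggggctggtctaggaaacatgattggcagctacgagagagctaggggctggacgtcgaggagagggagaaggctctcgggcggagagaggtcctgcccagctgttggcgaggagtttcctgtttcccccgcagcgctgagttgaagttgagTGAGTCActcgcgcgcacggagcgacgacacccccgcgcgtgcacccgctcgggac

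The TGFB1 window held no match and had a GC content of 77.3%, against a median of 58.7% over 34943 promoter windows of the same length. The TGFB2 window, at 51.7% GC, held CAGACA beginning 53 bases upstream of its RefSeq start. RefSeq lists 8 windows for TGFBR1 and 2 for TGFBR2, and the one shown is that with a match closest to its start. In the TGFBR1 window shown, the CAGA core lay on the opposite strand, 17 bases upstream. In the TGFBR2 window shown, the AP-1 match TGAGTCA ran from 6 bases upstream into the start base. Another TGFBR1 window held a CAGA core 244 bases upstream of its own start. The remaining TGFBR1 windows and the other TGFBR2 window held no match. Across the 24 windows of the 9 members, 6 held a match to any motif searched, in 4 genes (TGFB2, TGFBR1, TGFBR2 and SMAD3). CAGACA was in 4 of these windows and in 16.9% of all promoter windows, and TGANTCA was in 2 and in 7.72% of all. The palindromic SMAD element GTCTAGAC and the interferon-stimulated response element, a motif bound by STAT and IRF factors, were in none of the 24, and were in 0.203% and 3.57% of all windows. Both strands were searched in each case, and no motif contains another. These matches are letters in a window and show no binding.

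The libraries held between 36429395 and 65096297 counts. CPM are counts divided by the library total, scaled by TMM factors of edgeR. PBRM1 was present at 158.3 ± 2.30 CPM (SD, n = 3) across the shCTL libraries but at 41.9 ± 1.22 CPM (SD, n = 3) after silencing, 26.5% of the control level (log2 fold change -1.91, adjusted p = 9.98e-23 by the quasi-likelihood test of edgeR, adjusted after Benjamini and Hochberg, as is every adjusted p here). The mesenchymal markers VIM, CDH2, ZEB1, FN1 and SPARC were expressed in all libraries, at 129.8 CPM or more, whereas ESR1 and PGR had at most 12 counts and EPCAM at most 8. ERBB2 was at 49.6 to 52.4 CPM in every library. The epithelial cadherin CDH1, low in all libraries, had 186, 226 and 271 counts in shCTL and 110, 58 and 77 counts in shPBRM1 libraries, and thus also moved with the groups. Of 10 markers of blood, endothelial, fibroblast, liver and red cells, 2 had no count in any library. The 10 summed to 4.55 to 5.98 CPM in shCTL and 1.08 to 1.70 CPM in shPBRM1 libraries, no single one reached over 2.86 CPM, and the fibroblast gene LUM had 62, 76 and 68 counts in shCTL and 0, 0 and 2 in shPBRM1 libraries. The mesenchymal markers also differed between the groups without overlap, as did 68.3% of all genes tested. VIM and CDH2 were higher and ZEB1, FN1 and SPARC lower in all shPBRM1 libraries. Over all libraries VIM spanned 602 to 781 CPM and FN1 208 to 560 CPM. The levels of the mesenchymal markers, of the other-cell list and of CDH1 thus moved with the groups, and their part in the results was not tested.

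Among the ligands, TGFB1 rose and TGFB2 fell in shPBRM1 cells, while TGFB3 did not pass the test. TGFB1, the most widely expressed of the 3 isoforms and a suppressor of T cell responses, was measured at 57.8, 63.4 and 61.1 CPM in shCTL replicates 1, 2 and 3 and at 102, 116 and 103 CPM in shPBRM1 replicates 1, 2 and 3. All shPBRM1 libraries were above all shCTL libraries. TGFB1 was thus 1.75-fold higher, with a log2 fold change of 0.81 (95% interval 0.71 to 0.91, standard error 0.071, adjusted p = 2.27e-13), from means of 60.8 ± 2.81 to 106.9 ± 7.80 CPM (SD, n = 3). TGFB1 lies on chromosome 19 (41301587-41353911, minus strand, GENCODE v29 on GRCh38), where the annotation overlaps it on the opposite strand with HNRNPUL1, CCDC97, TMEM91 and AC011462.1. HNRNPUL1 rose by a log2 fold change of 0.39 (adjusted p = 2.94e-08) and CCDC97 fell by 0.24 on the log2 scale (adjusted p = 6.13e-04). The library kit keeps strand, but the strand setting of the counting is not given in the sources used here, and the part of these overlaps in the TGFB1 counts was not tested.

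TGFB2, a ligand of mesenchymal cells that needs betaglycan for high-affinity binding to TGFBR2, had 37.4, 37.3 and 39.3 CPM in the shCTL and 18.3, 18.7 and 19.3 CPM in the shPBRM1 libraries. The groups were far apart and each was tight. The log2 fold change was -1.02 (95% interval -1.13 to -0.91, standard error 0.033, adjusted p = 1.76e-13), and the level fell 2.03-fold from 38.0 ± 1.11 to 18.8 ± 0.497 CPM (SD, n = 3). This is close to a fold change of 2, and without shCTL replicate 3 or without shPBRM1 replicate 1 TGFB2 came to just under it, the lowest size among the fits that left out 1 library being -0.99. TGFB2 lies on chromosome 1 (218346235-218444619, plus strand) and its antisense gene TGFB2-AS1 had at most 7 counts in any library. This GENCODE start lies downstream of the RefSeq window shown above, which ends at 218345385, so the annotations differ on the start.

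TGFB3, the third isoform, was the lowest of the ligands, at 9.08, 6.77 and 8.15 CPM in the shCTL and 6.28, 7.94 and 6.98 CPM in the shPBRM1 libraries. The groups overlapped, and 1 of the 3 same-numbered pairs went up while 2 went down. Its log2 fold change of -0.18 had a 95% interval of -0.41 to 0.061 (adjusted p = 0.152), which leaves room for a decrease. The interval uses variances moderated across genes. The standard error of TGFB3 from its own libraries was 0.157, the largest among the 9 members, and that spread alone would allow a wider interval. Without shCTL replicate 2 the log2 fold change was -0.29 and the adjusted p 0.0290.

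The receptors also moved in opposite directions: TGFBR1 fell and TGFBR2 rose. TGFBR1, the type I receptor kinase that phosphorylates SMAD2 and SMAD3, had 273, 267 and 281 CPM in the shCTL and 145, 147 and 150 CPM in the shPBRM1 libraries. The lowest shCTL library was well above the highest shPBRM1 library, and the log2 fold change was -0.89 (95% interval -0.97 to -0.82, standard error 0.027, adjusted p = 6.77e-16). TGFBR2, the type II receptor that binds the ligand first, had 37.2, 44.4 and 41.1 CPM in the shCTL and 90.2, 97.1 and 90.8 CPM in the shPBRM1 libraries. No shPBRM1 library was below 90.2 CPM and no shCTL library above 44.4 CPM. TGFBR2 rose 2.26-fold, from 40.9 ± 3.61 to 92.7 ± 3.80 CPM (SD, n = 3), or by 1.18 as log2 fold change (95% interval 1.07 to 1.29, standard error 0.081, adjusted p = 1.01e-15). TGFBR1 is on chromosome 9 (99104038-99154192) and TGFBR2 on chromosome 3 (30606502-30694142), both on the plus strand, and the annotation overlaps each with only a pseudogene.

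**Figure D1:**
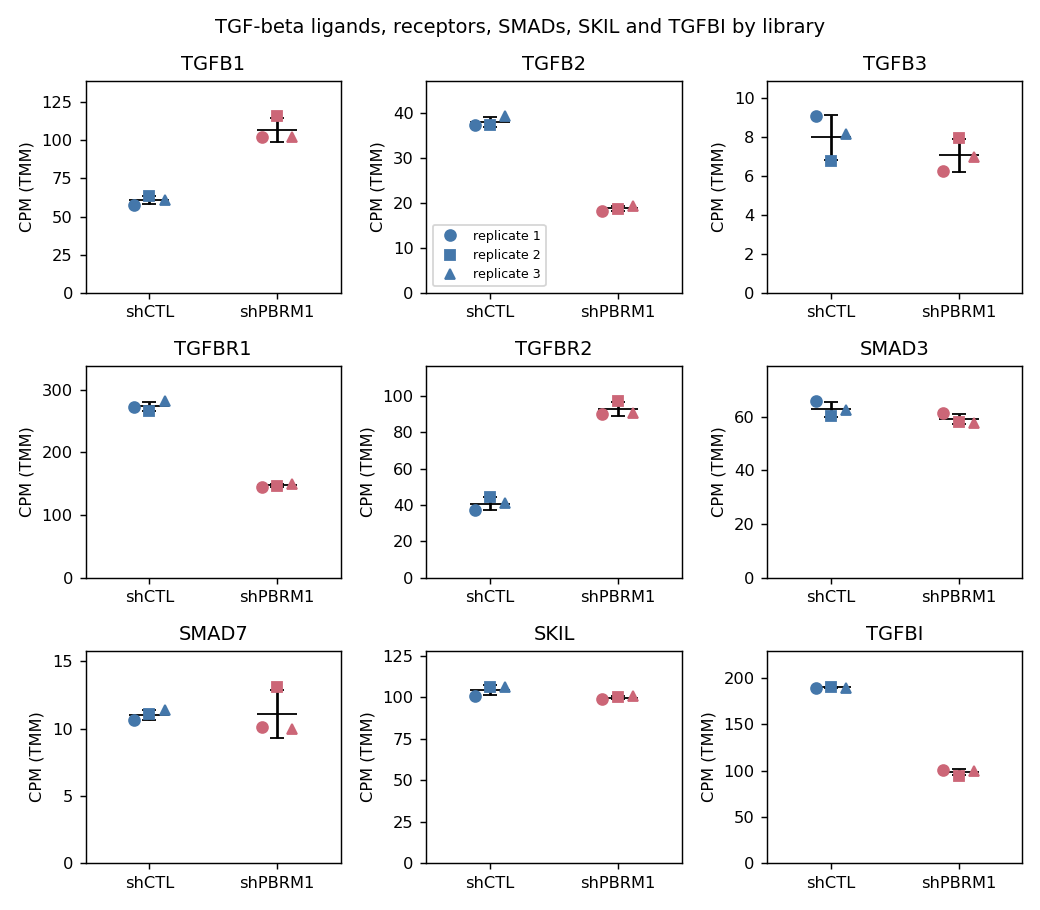
Level of each of the 9 genes in CPM with TMM scaling (linear axes from 0) in the 3 shCTL libraries (blue) and the 3 shPBRM1 libraries (red), with symbols for replicates 1 to 3 and bars for the mean and SD. TGFB1 and TGFBR2 lie higher, TGFB2, TGFBR1 and TGFBI lower in all shPBRM1 libraries, and the points of TGFB3, SMAD3, SMAD7 and SKIL overlap between the groups.

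None of the transducer and the feedback genes passed the test. SMAD3, the receptor-activated SMAD that binds the CAGA box, had 65.7, 60.2 and 62.4 CPM in the shCTL and 61.5, 58.1 and 57.9 CPM in the shPBRM1 libraries. The groups overlapped in part, although the shPBRM1 library was the lower one in 3 of 3 same-numbered pairs. The log2 fold change was -0.083 (95% interval -0.18 to 0.0076, adjusted p = 0.0870). It passed the threshold without shCTL replicate 2 (adjusted p = 0.0412), without shPBRM1 replicate 1 (adjusted p = 0.0498) and with scaling by library size only (-0.13, adjusted p = 0.0122). With a replicate block that pairs same-numbered libraries it came just short (-0.085, adjusted p = 0.0504).

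SMAD7, the inhibitory SMAD that blocks TGFBR1 and whose transcription is a common readout of the pathway, had 10.6, 11.1 and 11.4 CPM in the shCTL and 10.1, 13.1 and 9.98 CPM in the shPBRM1 libraries. The shPBRM1 libraries lay on both sides of the shCTL ones. The log2 fold change of -0.011 had a 95% interval of -0.21 to 0.19 (adjusted p = 0.925), and its sign turned when shCTL replicate 3, shPBRM1 replicate 1 or shPBRM1 replicate 3 was left out. SKIL, which encodes SnoN, a corepressor that holds SMAD complexes inactive, had 101, 107 and 106 CPM in the shCTL and 98.7, 99.9 and 101 CPM in the shPBRM1 libraries. These ranges met at their edge, and the shPBRM1 library was the lower one in 3 of 3 pairs. The log2 fold change was -0.066 (95% interval -0.14 to 0.012, adjusted p = 0.0855), and the adjusted p was 0.0395 without shCTL replicate 1 and 0.00431 with scaling by library size only. For SMAD3, SMAD7 and SKIL the intervals reached no further than -0.21 from 0. This was short of the log2 fold changes of TGFB1, TGFB2 and both receptors. The intervals use variances moderated across genes. The standard error of SMAD7 from its own libraries was 0.13, and that spread alone would allow a wider interval.

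TGFBI, a secreted matrix protein named for its induction by TGF-beta, fell in shPBRM1 cells. It had 189, 191 and 190 CPM in the shCTL and 101, 94.5 and 99.3 CPM in the shPBRM1 libraries. The groups did not overlap, and the mean went from 190 ± 0.887 to 98.2 ± 3.26 CPM (SD, n = 3), for which the log2 fold change was -0.95 (95% interval -1.03 to -0.88, standard error 0.028, adjusted p = 1.29e-16). In bulk RNA a lower level in each cell and a smaller share of cells with the transcript cannot be told apart, for this gene as for the others.

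**Figure D2:**
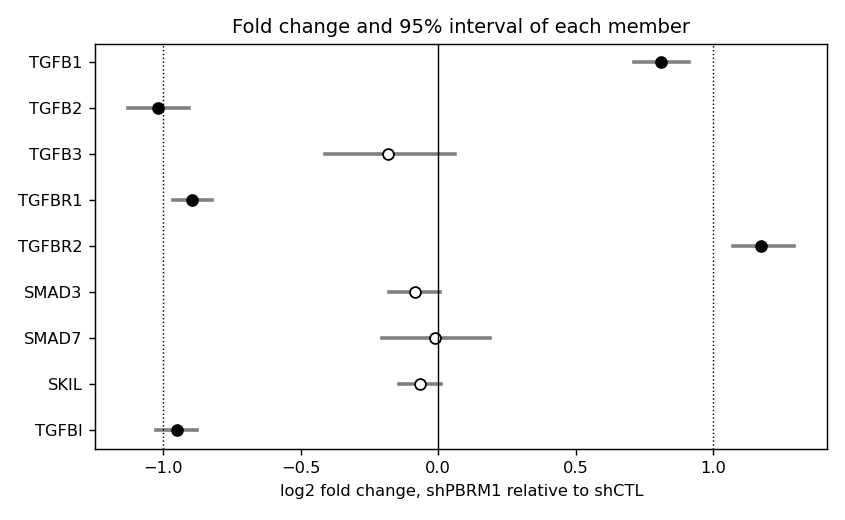
Log2 fold change of shPBRM1 relative to shCTL libraries for the 9 genes (points, from edgeR) with 95% intervals (bars, from limma-trend); filled points have an adjusted p under 0.05 and dotted lines mark a fold change of 2. TGFBR2 (1.18) and TGFB2 (-1.02) lie past the dotted lines, TGFBR1 (-0.89), TGFBI (-0.95) and TGFB1 (0.81) just inside them.

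With calls made for adjusted p values below 0.05 and changes beyond 2-fold, the thresholds used by the study, 1 of the 9 members was called higher (TGFBR2) and 1 was called lower (TGFB2). Of all 15450 genes tested, 2.87% were called higher and 9.68% lower by this rule. By the adjusted p alone, 2 members were higher and 3 lower, against 31.5% and 33.2% of all genes tested, and 4 members were not called. The groups did not overlap for 5 of the 9 members and for 68.3% of all genes. With so many genes of the table past the test, these counts are close to the background and nothing particular to the members was read from them. The median log2 fold change of the 9 was -0.083, beside -0.0080 over all genes tested.

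Levels were compared between genes as CPM per kb of the exons of each gene. In shCTL cells TGFBR1 was the most abundant member, at a mean of 40.0 CPM per kb, followed by TGFBI (24.3), TGFB1 (18.8), SKIL (13.4), TGFBR2 (8.69), TGFB2 (7.37), SMAD3 (6.89), SMAD7 (2.19) and TGFB3 (1.63), all as mean CPM per kb. No neighbors in this order overlapped over the 3 libraries, although the lowest TGFB2 library (7.24 CPM per kb) and the highest SMAD3 library (7.21 CPM per kb) nearly met. In shPBRM1 cells TGFB1 took the first place, at 33.0 CPM per kb, ahead of TGFBR1 (21.5), TGFBR2 (19.7), SKIL (12.8), TGFBI (12.6), SMAD3 (6.49), TGFB2 (3.64), SMAD7 (2.20) and TGFB3 (1.44), again as mean CPM per kb. Of these neighbors SKIL, at 12.7 to 13.0, and TGFBI, at 12.1 to 12.9 CPM per kb, could not be ordered. The order depends on the length used: TGFBI has 7810 bases over all its annotated exons and 2804 in its longest coding transcript, and with the latter it was the first gene in shCTL and the second in shPBRM1 cells.

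The makeup of the ligand transcripts differed between the groups. TGFB1 accounted for 66.2, 69.4 and 67.0% of the summed CPM per kb of the 3 ligands in shCTL replicates 1 to 3 and for 86.7, 87.2 and 86.0% in the shPBRM1 replicates, whereas TGFB2 accounted for 26.9, 25.7 and 27.1% and for 9.75, 8.86 and 10.2%. TGFB3 made up the rest, with a mean of 5.88% in shCTL and 3.77% in shPBRM1 cells. The TGFB1 to TGFB2 ratio was therefore 2.46, 2.70 and 2.47 in the shCTL and 8.90, 9.84 and 8.47 in the shPBRM1 libraries. The groups were separate on each of these shares. The summed ligand level went from 27.8 ± 0.699 to 38.1 ± 2.57 CPM per kb (SD, n = 3).

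The receptor transcripts came to near parity. The TGFBR1 to TGFBR2 ratio was 5.05, 4.13 and 4.70 for shCTL and 1.10, 1.04 and 1.14 for shPBRM1 replicates 1, 2 and 3, with TGFBR1 the higher one in each library. The summed level of both receptors went from 48.7 ± 1.04 to 41.2 ± 0.858 CPM per kb (SD, n = 3), also without overlap. These shares and ratios restate the levels of the single genes and were given no test. The sizes of the ratios change with the length used, and the direction between the groups held with each length and with CPM alone.

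**Figure D3:**
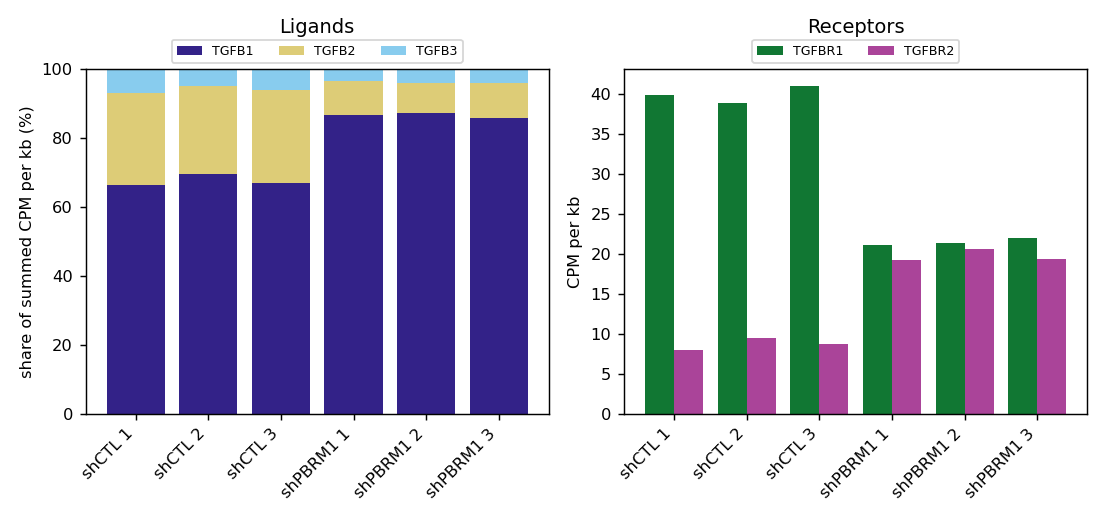
Left, share (%) of TGFB1, TGFB2 and TGFB3 in their summed CPM per kb in each library; right, TGFBR1 and TGFBR2 in CPM per kb in each library, both axes starting at 0. The TGFB1 part of the bar grows from 66.2 to 69.4% in shCTL to 86.0 to 87.2% in shPBRM1 libraries, and the paired receptor bars are of similar height only in the shPBRM1 libraries.

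Of 91 further genes of the TGF-beta pathway and superfamily, 80 passed the filter on low counts and 11, none with over 16 counts in a library, did not. By the rule with the fold minimum, 6 were higher and 14 lower in shPBRM1 cells. These were 7.5% and 17.5% of those tested, beside 2.87% and 9.68% of all genes. By the adjusted p alone 28 were higher and 38 lower, 35% and 47.5%, beside the 31.5% and 33.2% of all genes. The median log2 fold change over the 80 was -0.10. The list was chosen with earlier results of these data known. No excess over the background was therefore read from these shares or from those by role below.

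Of 11 genes of ligand latency and activation tested, 1 rose and 6 fell by the adjusted p, and 4 were not called, where 4863 of all 15450 genes rose, 5137 fell and 5450 were not called. The median log2 fold change of the 11 was -0.40, beside -0.0080 over all genes. ITGAV, the integrin alpha V chain that pairs with ITGB8 to free latent TGF-beta, rose from 188 ± 0.850 to 430.2 ± 13.8 CPM (SD, n = 3; log2 fold change 1.19, adjusted p = 1.27e-17). ITGB8, at a far lower level, fell from 4.09 ± 0.373 to 1.89 ± 0.195 CPM (SD, n = 3; log2 fold change -1.10, adjusted p = 5.19e-07). Both cell surface anchors of latent TGF-beta fell. LRRC32, which encodes GARP, had 1011, 1294 and 1312 counts in the shCTL and 454, 364 and 506 counts in the shPBRM1 libraries, a log2 fold change of -1.69 (adjusted p = 4.03e-15). NRROS, its relative in myeloid cells, had 154, 138 and 175 counts against 31, 31 and 42 (log2 fold change -2.42, adjusted p = 3.88e-10). The latent binding proteins parted: LTBP4 fell by 0.96 on the log2 scale (adjusted p = 1.06e-13), whereas the log2 fold changes of LTBP1 (0.047), LTBP2 (0.057) and LTBP3 (0.018) did not pass the test, with adjusted p values from 0.177 to 0.693.

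Of 13 other ligands of the superfamily tested, 5 were higher and 6 lower by the adjusted p. These were 38.5% and 46.2%, beside 31.5% and 33.2% of all genes. BMP5, a bone morphogenetic protein, rose from 103, 148 and 116 counts in the shCTL to 619, 431 and 663 in the shPBRM1 libraries (log2 fold change 1.97, adjusted p = 2.14e-13). BMP7, another member of that subfamily, went the other way, from 79, 133 and 127 counts to 15, 18 and 18 (log2 fold change -2.95, adjusted p = 5.47e-10). INHBE, an inhibin beta chain, fell by 1.12 on the log2 scale (adjusted p = 1.55e-12). GDF5, GDF6, INHA and AMH were also called, but at low counts: none had over 74 counts in a library. GDF5 (log2 fold change 1.12, adjusted p = 8.01e-04) and GDF6 (1.95, adjusted p = 3.10e-04) were higher and INHA (-1.13, adjusted p = 0.0402) and AMH (-1.02, adjusted p = 0.0273) lower, and the AMH libraries overlapped between the groups. A filter at a mean of at least 50 counts left GDF5, GDF6, INHA and AMH untested. The calls of INHA and AMH also depended on the fit in other settings. AMH was lost with the replicate block (log2 fold change -0.97), with DESeq2 (adjusted p = 0.100), with limma-trend and without shCTL replicate 2 or 3 or shPBRM1 replicate 2 or 3. INHA was lost with DESeq2 (adjusted p = 0.131), with no filter on low counts and whenever any library but shPBRM1 replicate 1 was left out. INHBB, with 6, 16 and 12 counts in shCTL and 2, 0 and 2 in shPBRM1 libraries, did not pass the filter. It was called lower with DESeq2 (log2 fold change -3.36, adjusted p = 0.00451) and with no filter. The same held without shCTL replicate 1 and without any 1 of the shPBRM1 replicates.

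No other receptor or co-receptor and no other SMAD passed a fold change of 2. Of 10 receptors tested 5 were higher and 3 lower by the adjusted p, 50% and 30%, beside 31.5% and 33.2% of all genes. Among the higher ones was TGFBR3, which encodes betaglycan, the co-receptor that presents TGFB2. The log2 fold change of TGFBR3 was 0.37 (adjusted p = 6.40e-08). The endothelial co-receptor ENG was at 3.65 ± 0.879 and 3.45 ± 0.156 CPM (SD, n = 3; log2 fold change -0.087, adjusted p = 0.625). SMAD2, the second receptor-activated SMAD of TGF-beta, had a log2 fold change of 0.25 (adjusted p = 6.00e-06) and SMAD4, the common partner, one of 0.14 (adjusted p = 9.89e-04). Both were higher in all shPBRM1 libraries than in any shCTL library, by far less than TGFBR2 was.

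Among 14 inhibitors and regulators tested, 7 were higher and 6 lower by the adjusted p. These were 50% and 42.9%, beside 31.5% and 33.2% of all genes. The largest change was that of DCN, which encodes decorin, a matrix proteoglycan that binds TGF-beta: it had 104, 80 and 114 counts in the shCTL and 6, 2 and 8 counts in the shPBRM1 libraries (log2 fold change -4.47, adjusted p = 6.35e-11). DCN is also a fibroblast gene like LUM, and the part of the marker level above in this result was not tested. FST, which encodes the activin antagonist follistatin, fell from 58.7 ± 2.86 to 10.2 ± 0.573 CPM (SD, n = 3; log2 fold change -2.52, adjusted p = 2.68e-20). NOG, which encodes the BMP antagonist noggin, rose at low counts, from 8, 4 and 14 to 43, 23 and 56 (log2 fold change 1.94, adjusted p = 2.20e-04). SKI, the close relative of SKIL, had a log2 fold change of 0.29 (adjusted p = 1.87e-07) and PMEPA1, a TGF-beta induced inhibitor of SMAD signaling, one of 0.27 (adjusted p = 9.46e-04).

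The other target genes did not move as 1 group. Of 26 tested, 7 were higher and 15 lower by the adjusted p, 26.9% and 57.7%, beside 31.5% and 33.2% of all genes. A further 4 were not called. The median log2 fold change of the 26 was -0.27, beside -0.0080 over all genes. FN1, the matrix protein fibronectin, fell from 554 ± 8.97 to 221 ± 11.5 CPM (SD, n = 3; log2 fold change -1.33, adjusted p = 1.05e-17). ACTA2, smooth muscle actin, fell from 302, 481 and 480 counts to 75, 44 and 68 (log2 fold change -3.00, adjusted p = 2.22e-15). TPM1 (log2 fold change 0.90, adjusted p = 1.11e-15), COL1A1 (0.80, adjusted p = 8.29e-14) and TAGLN (0.51, adjusted p = 6.23e-06) were among the 7 higher ones, each by less than 2-fold. CDKN1A, the cell cycle inhibitor p21, had a log2 fold change of -1.50 (adjusted p = 2.17e-15), the adaptor NEDD9 one of -2.06 (adjusted p = 2.06e-09) and the angiogenic factor VEGFA one of -1.14 (adjusted p = 1.34e-16). POSTN, which encodes periostin, a matrix protein with the same fasciclin domains as TGFBI, went the opposite way to TGFBI: it had 859, 1133 and 1184 counts in the shCTL and 4958, 3152 and 5215 in the shPBRM1 libraries (log2 fold change 1.81, adjusted p = 1.48e-20). CCN2, ID1 and ID3, widely read as TGF-beta or BMP reporters, stayed well under a 2-fold difference. ID3, a helix-loop-helix inhibitor mostly driven by BMP signals, had a log2 fold change of -0.31 (adjusted p = 8.64e-08). CCN2, the connective tissue growth factor CTGF, had a log2 fold change of 0.054 (adjusted p = 0.236) and ID1 one of -0.069 (adjusted p = 0.122).

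**Figure D4:**
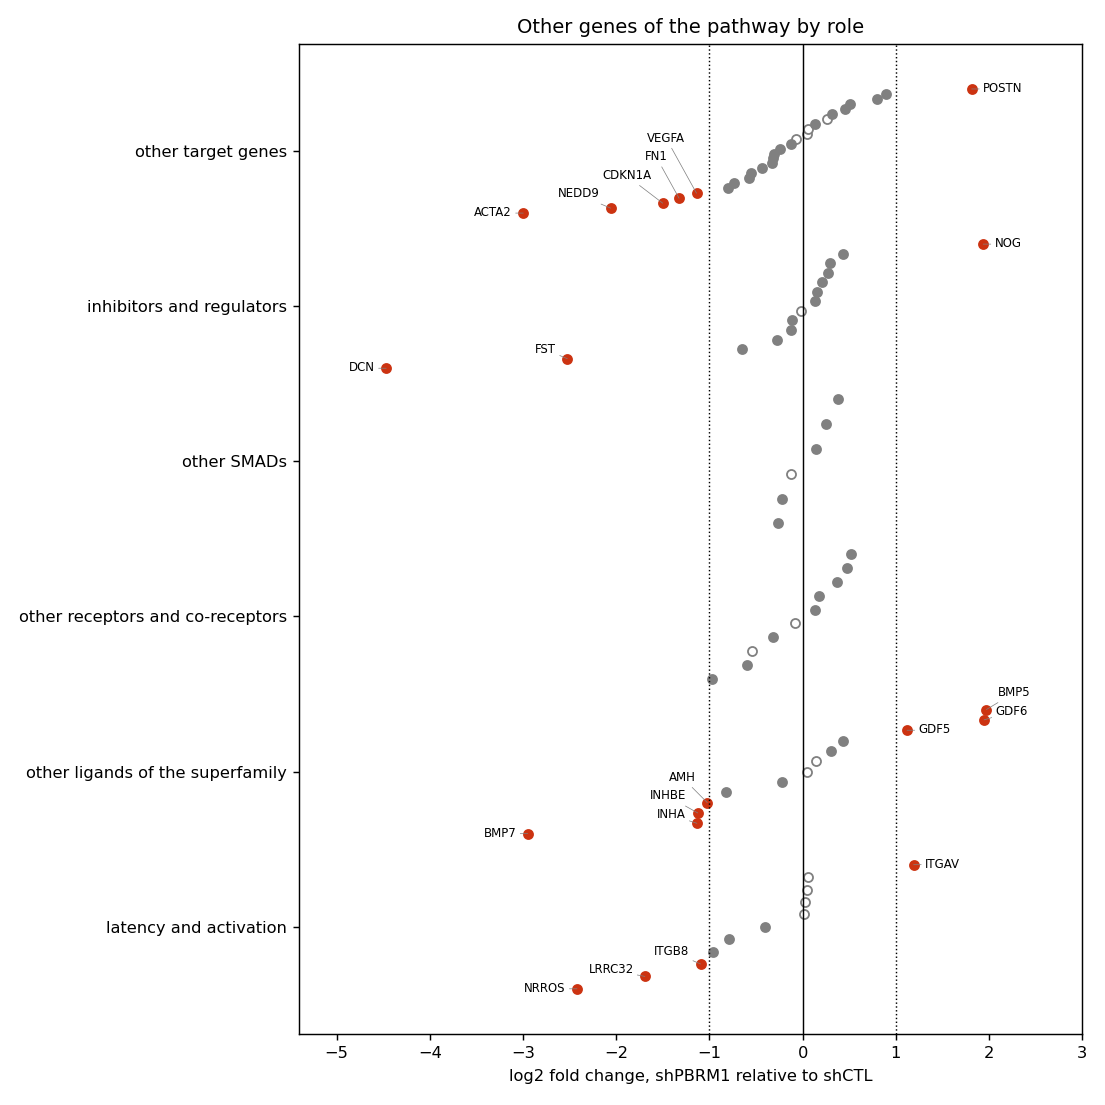
Log2 fold change of shPBRM1 relative to shCTL libraries for the 80 tested genes of the pathway list in 6 roles, sorted within each role; red points with names passed both the adjusted p of 0.05 and the 2-fold minimum, grey points an adjusted p under 0.05 only, and open points neither. The 6 named points on the right and 14 on the left run from -4.47 (DCN) to 1.97 (BMP5), and no receptor or SMAD is among them.

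The genes with the profiles most like those of TGFBR2 and TGFB2, the members with the largest rise and fall, were sought among 11540 candidates averaging 100 counts or more. Likeness was the root-mean-square difference of log2 CPM over the 6 libraries after each gene was centered on its mean. For TGFBR2 they were NTRK3 (0.0608), a neurotrophin receptor, TP53INP2 (0.0613) and the histone gene HIST1H1E (0.0635), with log2 fold changes of 1.15, 1.17 and 1.10. For TGFB2 they were the transcription factors PRRX1 (0.0313), ETV1 (0.0380) and PPARG (0.0395), with log2 fold changes of -1.04, -0.95 and -0.98. With 2 groups of 3 libraries, a gene with a like difference between the groups scores as similar.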

How the data were processed

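RNA from BT-549 cells was sequenced by the authors after TruSeq Stranded mRNA preparation, and the deposited table holds raw counts per gene in 6 libraries. The submitters' processing notes name CASAVA 1.8.2, STAR 2.7.9a, featureCounts, DESeq2 1.24.0 and GRCh38.p7; the annotation and strand setting of the counting are not given in the sources used here. Libraries held 36429395 to 65096297 counts; 12608 rows had no count and 14 rows carry dates in place of symbols.

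Counts were filtered with filterByExpr, scaled by TMM and tested with edgeR 4.0.16 (glmQLFit and glmQLFTest, R 4.3.3) over 15450 genes with Benjamini-Hochberg adjustment. A gene was called when its adjusted p was below 0.05 and its change exceeded 2-fold. The 95% intervals are from limma 3.58.1 (limma-trend on log2 CPM, prior count 2), and standard errors of log2 fold changes are from the spread of the libraries' log2 CPM. The intervals use variances moderated across genes and the standard errors do not, so an interval cannot be derived from the standard error beside it. Exon lengths are from GENCODE v29 and promoter windows from RefSeq. The script was tested on simulated data. Alternatives were DESeq2 1.42.0, RLE factors, library size only, no filter, a mean of at least 50 counts, a replicate block and leaving out each library.

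The named genes were the 9 members, PBRM1, every called gene of the pathway list, 14 further genes of it set by name, of which 1 is not reported here, and the 3 nearest profiles of 2 members. The members and lists were chosen with earlier results of these data known. No library of a group repeated another, since their counts differed by 4.66 to 22.6 times the sampling noise (chi-square per degree of freedom). The largest values, 19.5 and 22.6, were those of shPBRM1 replicate 1 against shPBRM1 replicates 2 and 3. Every other pair was at 6.863 or less. Same-numbered libraries deviated together (correlations of deviations from the group means of 0.734, 0.593 and 0.419 over 5622 genes), so the numbers were taken to pair the libraries, although shCTL replicate 2 also deviated with shPBRM1 replicate 3 (0.464); the pairing comes from the data, not from a stated batch. P-values measure the spread between cultures of 1 cell line. Libraries of MUC1 or IRF1 silencing and chromatin accessibility were not analysed here.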

Additional observations from a re-analysis of the deposited data

How the results depend on the processing

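The log2 fold changes of TGFB1 (0.76 to 0.85), TGFB2 (-1.07 to -0.99), TGFBR1 (-0.94 to -0.87), TGFBR2 (1.12 to 1.24) and TGFBI (-0.92 or further from 0) kept their direction and an adjusted p under 0.05 in each of the 13 alternatives run. With a replicate block, which pairs same-numbered libraries, TGFB2 came to -1.02 (adjusted p = 1.78e-21) and no member's call changed; of the pathway genes AMH lost its call, which left 13 lower. Pathway genes called lower numbered 12 to 16 over the alternatives with a fold minimum. When 1 library was left out, the log2 fold change ranged from -0.29 to -0.089 for TGFB3, from -0.11 to -0.051 for SMAD3, from -0.13 to 0.059 for SMAD7 and from -0.092 to -0.053 for SKIL, and 0 to 1 members were called lower, TGFB2 being the one lost. Scaling by library size only gave -0.13 for SMAD3 and -0.12 for SKIL, both then past the threshold, and a mean of at least 50 counts gave -0.077 for SKIL (adjusted p = 0.0428). That filter tests fewer genes, and left 3 pathway genes and 270 genes of the table called higher and 941 called lower, against 6, 443 and 1496. The called pathway genes it left untested were GDF5, GDF6 and NOG among the higher and INHA and AMH among the lower ones. With no fold change minimum 2 members, 28 pathway genes and 4863 genes of the table were higher, and 3, 38 and 5137 lower.

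The difference between the groups (shPBRM1 minus shCTL) in the TGFB1 share was 19.1 percentage points per kb of exon and 23.6 from CPM without length. For the TGFB2 share it was -17.0, -21.4 without length and -14.8 with the longest coding transcript, an alternative added after seeing the data, and for the TGFB3 share -2.11 and -3.53 with that transcript. For the TGFB1 to TGFB2 ratio it was 6.52, 4.10 without length and 7.48 with that transcript, and for the TGFBR1 to TGFBR2 ratio -3.53 and -5.14 without length. Summed ligand and receptor levels differed by 10.3 and -7.45 CPM per kb and by 25.9 and -74.6 CPM. The sizes of these differences varied between settings with the length by which each gene is divided, which is the same in both groups. Their direction was the same in each setting. The 95% intervals reflect the spread between libraries, with variances moderated across genes, and do not cover a second cell line.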
